A study of Mus musculus with 9 samples.

Results

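P2X receptors are cation channels of the plasma membrane that open when extracellular ATP binds, and pannexin 1 forms a larger membrane channel through which ATP leaves the cell. P2rx4, P2rx6 and P2rx7 encode the receptor subunits P2X4, P2X6 and P2X7, and Panx1 encodes pannexin 1. Potassium loss through open P2X7 is a known trigger of the NLRP3 inflammasome, a cytosolic complex that activates caspase-1 and can end in pyroptosis, a lytic form of cell death. These 4 genes were taken by name, as sensors and releasers of ATP upstream of the inflammasome, out of 19072 gene identifiers in the tables. They were chosen on measured values of these libraries, the expected counts and FPKM over the 3 groups, so their differences between groups are given as a description without p-values. All 4 passed the filter on low counts that left 13682 genes.

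RNA was sequenced from 4T1-TGL cells, made from the 4T1 mammary carcinoma line of BALB/c mice and grown in DMEM/F12. KO1 and KO2 are lines with the genotype Malat1 KO and Ctrl is the line with the genotype WT, with 3 libraries each. Malat1 is an abundant nuclear long noncoding RNA, and the title of the study links it to pyroptosis and to killing by T cells. The labels do not say how the knockouts were made, whether each line is 1 clone, or whether the replicates were separate cultures, so errors measure the spread between these libraries only. All groups share the tumour line, its TGL modification and the medium, and no ATP or other agent is named.

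Malat1 was at 3.88, 3.69 and 2.63 CPM, counts scaled to library size, in KO1 and at 119, 160 and 98.1 CPM in KO2, against 510, 402 and 474 CPM in Ctrl. The 2 knockout lines therefore retained 0.737% and 27.2% of the Ctrl level. Library totals ran from 30655924 to 35406395 expected counts. The keratins Krt8 and Krt18 of simple epithelium were abundant, while the epithelial adhesion gene Cdh1 reached at most 0.373 CPM in any library. The summed level of 12 macrophage and leukocyte markers was 28.9 to 37.8 CPM in KO1 and 12.6 to 15.5 CPM in KO2, against 15.1 to 22.1 CPM in Ctrl. Nearly all of it was Cd68, a lysosomal protein gene. The leukocyte gene Ptprc had at most 0.0929 CPM in any library, the macrophage gene Adgre1 at most 0.0300 CPM, and Cd4 and Ncr1 were listed in no library. The summed level of 6 fibroblast markers, mostly Pdgfra, was 275 to 301 CPM in KO1 and 152 to 160 CPM in KO2, against 318 to 328 CPM in Ctrl, and that of 6 epithelial markers 1171 to 1404 CPM in KO1 and 2116 to 2315 CPM in KO2, against 700 to 718 CPM in Ctrl. Only 3 of the 6 epithelial markers passed the filter on low counts, and Cldn7 had no count in KO1. The part of these marker lists in the results was not tested. As the RNA is from whole cultures, a change in the share of cells that express a gene cannot be told apart from a change in RNA per cell.

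The promoters of P2rx7, P2rx4 and Panx1 are shown because the first pair are neighbours that were both higher in the knockout lines, while Panx1 was lower in both. Each window runs from 250 bases before to 50 bases after a start site given by RefSeq (GRCm38.p6), 5′ to 3′ on the gene's strand. That site is the outer end of the gene record for P2rx7 and Panx1, and lies 26 bases inside it for P2rx4 and 18 for P2rx6. Capitals mark matches to a motif on either strand, and in these 3 windows no 2 matches overlap.
P2rx7, chr5:122643677-122643976, plus strand: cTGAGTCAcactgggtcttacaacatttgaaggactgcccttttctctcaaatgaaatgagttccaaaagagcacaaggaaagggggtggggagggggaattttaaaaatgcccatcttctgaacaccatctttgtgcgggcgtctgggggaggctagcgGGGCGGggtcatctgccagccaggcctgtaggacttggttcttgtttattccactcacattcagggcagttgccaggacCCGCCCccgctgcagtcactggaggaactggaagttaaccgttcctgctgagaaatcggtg
P2rx4, chr5:122707294-122707593, plus strand: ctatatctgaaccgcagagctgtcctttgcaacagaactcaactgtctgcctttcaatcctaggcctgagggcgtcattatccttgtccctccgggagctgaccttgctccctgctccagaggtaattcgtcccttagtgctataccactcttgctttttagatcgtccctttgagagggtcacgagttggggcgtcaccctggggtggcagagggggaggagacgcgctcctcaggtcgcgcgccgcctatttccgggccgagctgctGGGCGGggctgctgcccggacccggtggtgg
Panx1, chr9:15045429-15045728, minus strand: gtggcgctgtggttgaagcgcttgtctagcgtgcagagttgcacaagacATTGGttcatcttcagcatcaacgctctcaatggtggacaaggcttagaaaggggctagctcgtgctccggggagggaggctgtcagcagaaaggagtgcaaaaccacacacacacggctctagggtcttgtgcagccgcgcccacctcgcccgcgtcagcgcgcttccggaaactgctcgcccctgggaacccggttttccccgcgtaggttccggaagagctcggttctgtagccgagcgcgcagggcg
The 6 motifs searched on both strands were the GC box, GGGCGG; the TATA box, written TATAAA; the CCAAT box, spelled as its name; the AP-1 motif TGANTCA; the cyclic AMP element TGACGTCA; and the STAT motif TTCNNNGAA. The P2rx7 window held 2 GC boxes, with first bases at -90 and -11 from the start, and an AP-1 match at -249. The P2rx4 window held a GC box whose first base is at 20, counted from 1 at the start site of the window, and the Panx1 window an inverted CCAAT at -201. GC boxes were present in 35.7%, AP-1 matches in 7.81% and CCAAT in 37.4% of the 32841 mouse promoters in the same table. The P2rx6 window, at chr16:17561635-17561934, held a GC box, a TATA match and a CCAAT match, the last pair overlapping. TATA matches were in 13.6% of all promoters. A later start of P2rx7 in the table, chr5:122650133-122650432, held none of the motifs. The Panx1 and P2rx4 windows were the richer in CpG, with 25 and 18 CpG against a median of 7, and P2rx7 had 8. A match is a string of letters and was not tested for binding.

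P2rx7 encodes the subunit with the long intracellular tail that couples ATP to inflammasome activation. Its gene is on chromosome 5, 122643927 to 122692336, on the plus strand. P2rx7 was at 8.07, 8.62 and 8.88 FPKM in KO1 and at 8.21, 8.50 and 8.12 FPKM in KO2, against 3.91, 4.07 and 4.19 FPKM in Ctrl, where FPKM scales fragments by transcript length and library size. Every knockout library was above every Ctrl library, and the knockout lines overlapped each other. The values rest on 1140 to 1267 expected counts in the 6 knockout libraries and 557 to 602 in Ctrl. The edgeR log2 fold change was 1.14 ± 0.0726 in KO1 and 1.19 ± 0.0727 in KO2 (SE, 3 libraries per group), and 0.04 ± 0.0706 for KO2 against KO1. In each line this is a level somewhat over 2.2 times that of Ctrl (2.21 and 2.28). Of all tested genes, 7.53% lay further from 0 in KO1 and 13.7% in KO2. P2X7 is also a receptor of macrophages. Of the 12 macrophage and leukocyte markers, 2 were tested, Cd68 and Lyz2. Cd68 was at 27.6 to 37.0 CPM in KO1 and 11.9 to 14.3 CPM in KO2, against 14.5 to 21.2 CPM in Ctrl. Lyz2, the lysozyme gene of macrophages, had 8 to 11 counts per library in KO1 and 1 to 23 in KO2, 25 in all, and was listed in no Ctrl library. The part of such cells in the P2rx7 values was not tested.

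P2rx4 encodes a receptor that sits at the plasma membrane and in lysosomes and is sensitive to low ATP. Its gene lies on the same strand, 122707518 to 122729739, and starts 15.2 kb past the end of P2rx7. P2rx4 was at 14.5, 17.6 and 17.2 FPKM in KO1 and at 14.9, 16.8 and 14.1 FPKM in KO2, against 10.2, 10.6 and 10.9 FPKM in Ctrl. The knockout lines again overlapped each other and neither overlapped Ctrl. The log2 fold change was 0.61 ± 0.0922 in KO1 and 0.60 ± 0.0924 in KO2 (SE), which is about 1.52 times Ctrl in either line. Further from 0 lay 17.0% of all tested genes in KO1 and 29.3% in KO2. The RefSeq span of Camkk2, a kinase gene on the other strand, overlaps that of P2rx4 by 11360 bases. In the GENCODE M21 annotation no gene overlaps P2rx4. Whether counting used strand is not given in the sources used here. Camkk2 had a log2 fold change of -0.08 in KO1 (edgeR adjusted p = 0.425) and 0.39 in KO2 (edgeR adjusted p = 0.000504). Its part in the P2rx4 values was not tested.

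P2rx6 encodes a subunit that is known mainly as a partner in mixed channels, since it forms few working channels alone. Its gene is on chromosome 16, 17561867 to 17572015, on the plus strand. P2rx6 was at 0.50, 0.52 and 0.63 FPKM in KO1 and at 0.72, 0.66 and 0.39 FPKM in KO2, against 0.27, 0.23 and 0.28 FPKM in Ctrl. These are 39, 38 and 46 counts in KO1 and 52, 46 and 28 in KO2, against 20, 19 and 21 in Ctrl. KO2 replicate 3 was the lowest knockout library and still above Ctrl. The log2 fold change was 1.06 ± 0.273 in KO1 and 1.25 ± 0.272 in KO2 (SE), the widest errors of the 4 genes. Further from 0 lay 8.46% of all tested genes in KO1 and 13.2% in KO2. In the GENCODE M21 annotation P2rx6 overlaps Slc7a4, on the other strand, by 5783 bases, while in RefSeq the genes only adjoin. Slc7a4 had 4, 8 and 7 counts in KO1 and 36, 43 and 54 in KO2, against 31, 30 and 28 in Ctrl, so it fell in KO1 and rose in KO2 (log2 fold change -2.17, edgeR adjusted p = 0.000583, and 0.77, edgeR adjusted p = 0.0302). The part of shared reads in the P2rx6 values was not tested.

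Panx1, the ATP release channel, was lower in both knockout lines. Its gene is on chromosome 9, 15005785 to 15045478, on the minus strand. Panx1 was at 1.81, 1.80 and 2.18 FPKM in KO1 and at 0.81, 0.70 and 0.67 FPKM in KO2, against 3.56, 4.10 and 4.17 FPKM in Ctrl. The 3 groups did not overlap, with KO2 lowest and Ctrl highest. Counts were 117 to 142 in KO1 and 43 to 53 in KO2, against 242 to 300 in Ctrl. The log2 fold change was -1.06 ± 0.135 in KO1 and -2.36 ± 0.148 in KO2 (SE), leaving 48.0% and 19.5% of the Ctrl level. Further from 0 lay 8.46% of all tested genes in KO1 and 7.07% in KO2. KO2 against KO1 gave -1.30 ± 0.151, or 40.6%. The order of the groups in Panx1 differed from that in Malat1, which was lowest in KO1.

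**Figure D1:**
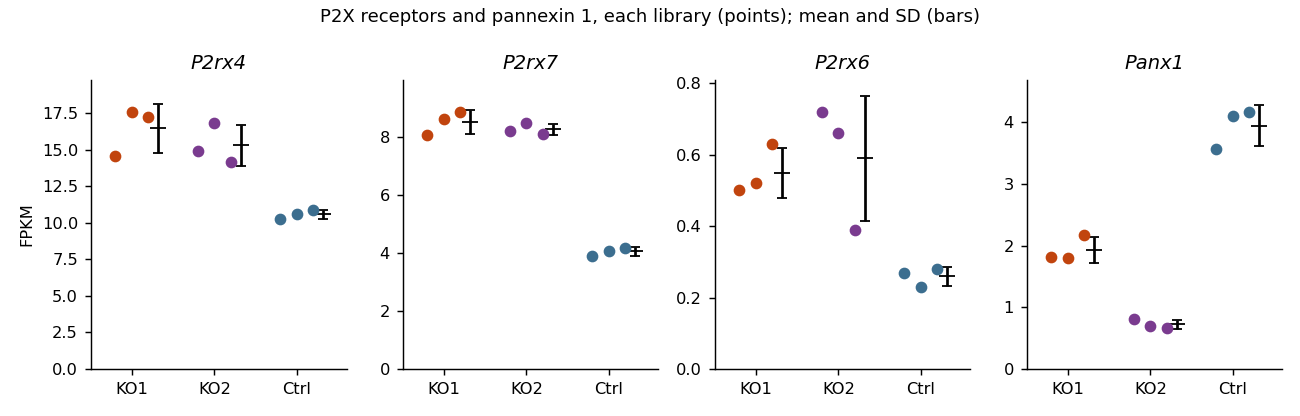
FPKM of the 4 genes (vertical axes, each from 0) in KO1, KO2 and Ctrl; points are single libraries in the order of their replicate numbers, bars the mean and SD of 3. The receptors sit higher in both knockout lines than in Ctrl, and Panx1 sits lower, with KO2 below KO1.

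By the edgeR rule of an adjusted p under 0.05, 4 of the 4 genes were called in KO1 (3 without KO1 replicate 3, as P2rx6 was not called then), where 30.5% of the whole table was called. In KO2 it was again 4 of 4, and 54.1% of all genes passed. Between the knockout lines 1 of 4 was called, Panx1, against 55% of all genes. Since the genes were chosen with these contrasts known, nothing is read from those counts or from groups that do not overlap. The share of all tested genes whose groups do not overlap in FPKM was not counted. KO1 and KO2 are compared with the same Ctrl libraries, so the likeness of their values is partly shared. The median log2 fold change of all tested genes was -0.0017 in KO1 and -0.03 in KO2.

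**Figure D2:**
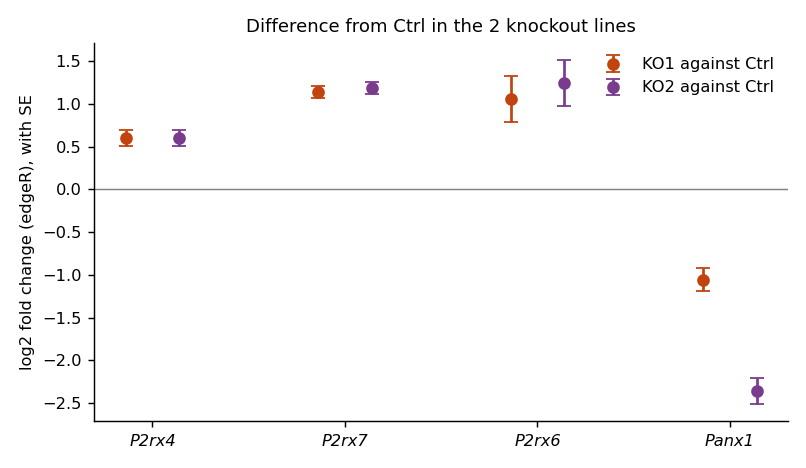
Log2 fold change from edgeR (vertical axis) of each gene in KO1 and KO2, both against Ctrl; bars are the approximate SE. P2rx4 and P2rx7 have nearly the same value in both lines, P2rx6 has the widest bars, and Panx1 is -1.06 in KO1 and -2.36 in KO2.

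Per unit of length, P2rx4 was the most abundant P2X transcript in every library. It made up 62.6% ± 1.62 of the summed FPKM of the P2X genes in KO1 and 62.9% ± 1.31 in KO2, against 70.2% ± 0.0164 in Ctrl (SD, n = 3 each). P2rx7 made up 32.5% ± 1.21 in KO1 and 34.2% ± 1.57 in KO2, against 27.0% ± 0.134 in Ctrl, and P2rx6 no more than 3.00% in any library. The summed P2X level was 26.2 ± 2.08 FPKM in KO1 and 24.3 ± 1.69 FPKM in KO2, against 15.0 ± 0.450 FPKM in Ctrl. In Ctrl cells 51.2% of tested genes had a lower FPKM than P2rx4, 30.5% than P2rx7, 30.2% than Panx1 and 6.22% than P2rx6. The FPKM ratio of P2rx7 over Panx1 was 4.46, 4.79 and 4.07 in KO1 and 10.1, 12.1 and 12.1 in KO2, against 1.10, 0.993 and 1.00 in Ctrl. The 2 genes were thus at like levels of FPKM in Ctrl. The 3 groups did not overlap in the ratio, which follows from the values of the 2 genes given above. For P2rx4 over Panx1 it averaged 8.56 ± 1.04 in KO1 and 21.2 ± 2.78 in KO2, against 2.69 ± 0.164 in Ctrl (SD, n = 3 each). The tables use a Panx1 transcript of 2112 bases, whereas the RefSeq-linked transcript in GENCODE M21 has 5732 bases. Panx1 FPKM, and ratios to it, depend on that length in the same way in all groups.

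The transcript length in the tables is the mean over a gene's transcripts weighted by their estimated abundance. The genes were chosen on counts and FPKM, and FPKM divides the count by nearly this length and by library size. Lengths are therefore given as a description with no test. For P2rx7, with 6 transcripts in the tables, it was 4670, 4716 and 4570 bases in KO1 and 4574, 4612 and 4570 bases in KO2, against 4366, 4216 and 4425 bases in Ctrl. All knockout libraries were above all Ctrl libraries, by 7.29% in KO1 and 5.75% in KO2 on average. Groups without overlap and longer in the knockout were found for 10.2% of 6222 genes with a varying length in KO1 and for 20.3% in KO2. The increase was larger in 2.11% of genes in KO1 and in 8.10% in KO2. P2rx7 transcripts linked to RefSeq in GENCODE M21 have 4936, 2576, 1848, 1605 and 712 bases, so a longer mean reflects a larger estimated share of the longer forms. The deposited tables give no values per transcript. Because of that division, P2rx7 differs less in FPKM than in counts.

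**Figure D3:**
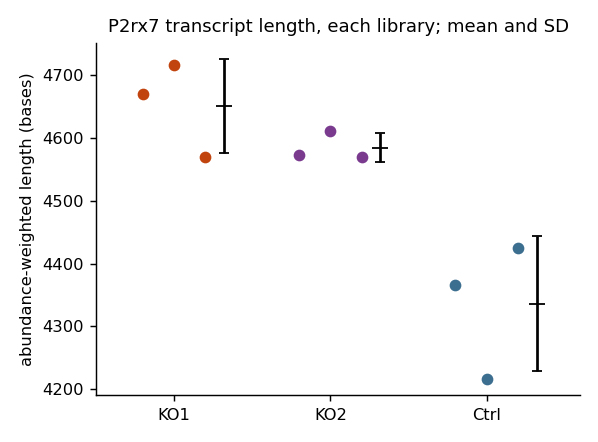
Abundance-weighted P2rx7 transcript length in bases (vertical axis, not from 0) in KO1, KO2 and Ctrl; points are libraries, bars the mean and SD of 3. The Ctrl libraries, 4216 to 4425 bases, all lie below the knockout libraries, 4570 to 4716 bases.

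P2rx4 length was 2681 to 2687 bases in KO2, against 2689 to 2696 bases in Ctrl, a difference of -0.328%. Groups without overlap and shorter in KO2 were found for 9.8% of genes. In KO1 it was 2687 to 2695 bases and overlapped Ctrl. P2rx6 lengths overlapped between all groups, and Panx1 had 1 transcript in the tables and no variation.

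The 5 gene lists from here on were chosen with earlier results of these data known, and most genes are named for being called. Their p-values are thus a description and no independent support. The other 6 P2X and pannexin genes were at low counts, and 3 were tested. In KO1, 1 rose and 1 fell (2 and 1 with upper quartile or total count scaling), and in KO2, 0 rose and 2 fell. The share called over all tested genes was 30.5% in KO1 and 54.1% in KO2. P2rx5, a further receptor subunit, had 33, 27 and 31 counts in KO1 and 1, 0 and 0 in KO2, against 5, 4 and 3 in Ctrl. It rose in KO1 (log2 fold change 2.91, edgeR adjusted p = 0.000215) and fell in KO2 (edgeR adjusted p = 0.00946), where its single count is 9.48% of the Ctrl level (95% counting interval 0.222% to 64.1%; not called on log2(FPKM + 1), adjusted p = 0.176 in limma). Panx2, a second pannexin, had 2, 4 and 2 counts in KO1 and 1, 2 and 0 in KO2, against 27, 15 and 17 in Ctrl. It fell in both lines (log2 fold change -2.80 in KO1, edgeR adjusted p = 0.00209; edgeR adjusted p = 0.000336 in KO2), with 5.78% of the Ctrl level in KO2 (95% counting interval 1.16% to 17.7%). P2rx3, the receptor of sensory neurons, had 30, 14 and 26 counts in KO1 and 18, 13 and 11 in KO2, against 4, 18 and 4 in Ctrl. Its log2 fold change of 1.45 in KO1 had an edgeR adjusted p = 0.0526, and without Ctrl replicate 2 it was 2.49 (edgeR adjusted p = 0.00421). In KO2 it was 0.88 (edgeR adjusted p = 0.192), and without that library 1.92 (edgeR adjusted p = 0.0111). P2rx5 passed the filter on low counts only through KO1, and Panx2 only through Ctrl. For such genes the filter itself favours a difference between groups, so their calls, and counts that include them, are a description only. P2rx1, P2rx2 and Panx3 stayed under the filter, with sums of 16, 9 and 16 counts in KO1 and 0, 2 and 1 in KO2, against 8, 2 and 17 in Ctrl.

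G protein-coupled P2Y receptors sense extracellular nucleotides without opening a channel. Of 7 listed, 2 were tested, and both fell in both lines. Over all tested genes, 30.5% were called in KO1 and 54.1% in KO2. P2ry6, a receptor for UDP, averaged 2.47 ± 0.999 FPKM in KO1 and 0.0167 ± 0.0153 FPKM in KO2, against 6.69 ± 0.348 FPKM in Ctrl (SD, n = 3 each). Its log2 fold change was -1.48 ± 0.268 in KO1 (edgeR adjusted p = 0.00181), and KO2 held 3 counts in all, 0.266% of the Ctrl level (95% counting interval 0.0548% to 0.779%; edgeR adjusted p = 2.96e-07). P2ry2, a receptor for ATP and UTP, averaged 1.64 ± 0.0351 FPKM in KO1 and 0.577 ± 0.0950 FPKM in KO2, against 3.47 ± 0.701 FPKM in Ctrl. The log2 fold change was -1.12 in KO1 (edgeR adjusted p = 0.000555) and -2.53 in KO2 (edgeR adjusted p = 8.81e-07). The median of the pair, -1.30 in KO1 and -5.46 in KO2, stands beside -0.0017 and -0.03 over all tested genes. These medians rest on fitted values, which for P2ry6 in KO2 depend on 3 counts.

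Enzymes at the cell surface turn ATP into adenosine, which has its own receptors and transporters. Of 25 such genes 16 were tested. In KO1, 5 rose and 1 fell, and the median log2 fold change was 0.11. In KO2, 1 rose and 7 fell (0 and 7 when scaled by total counts), with a median of -0.33. The share called over all tested genes was 30.5% in KO1 and 54.1% in KO2. Nt5e, which makes adenosine from AMP, rose to 40.4 ± 2.29 FPKM in KO1 and 30.3 ± 0.0907 FPKM in KO2, against 27.1 ± 1.76 FPKM in Ctrl (log2 fold change 0.54 and 0.24, edgeR adjusted p = 0.000182 and 0.0144). Enpp2, the secreted enzyme autotaxin, fell to 20.2 ± 5.55 FPKM in KO1 and 0.230 FPKM in each KO2 library, against 30.5 ± 4.71 FPKM in Ctrl (log2 fold change -0.63 and -6.97, edgeR adjusted p = 0.0238 and 2.02e-08). The nucleotide pyrophosphatase genes Enpp1 and Enpp3 and the phosphatase gene Acpp had 109, 53 and 113 counts in KO1, against 16, 3 and 51 in Ctrl, and rose in KO1 (edgeR adjusted p = 0.00204, 0.00122 and 0.0123). They had no count in KO2, where Acpp was at least 6.30-fold and Enpp1 at least 1.52-fold lower than in Ctrl. Those bounds take the group at 3 counts, the floor used for no count, plus what the minimum FPKM of the tables could hide. For Enpp3 no fold against Ctrl is given in KO2, as both are at or under that floor. Alkaline phosphatase Alpl rose in KO1 (log2 fold change 1.74, edgeR adjusted p = 0.0178) and had 3 counts in KO2, against 11 in Ctrl (edgeR adjusted p = 0.0975). The adenosine receptor gene Adora2b had 26 counts in KO1 (edgeR adjusted p = 0.253) and 2 in KO2 (edgeR adjusted p = 0.000279), against 41 in Ctrl. Enpp1, Enpp3 and Alpl passed the filter on low counts only through KO1, so their calls are a description only. Entpd5, a nucleoside diphosphatase of the endoplasmic reticulum, fell in KO2 (log2 fold change -0.35, edgeR adjusted p = 0.00883). Calls ended when 1 library was left out for Acpp in KO1 (Ctrl replicate 1), Enpp2 in KO1 (Ctrl replicate 2 or KO1 replicate 3), Alpl in KO1 (Ctrl replicate 1 or 2, or KO1 replicate 3) and Nt5e in KO2 (Ctrl replicate 1 or 3). They also ended for Enpp2 in KO1 with only the 2 groups in the fit, Alpl in KO1 with DESeq2, Nt5e in KO2 with total counts or FPKM, and Enpp1 in KO2 with FPKM.

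Of 18 genes for other routes of ATP release 12 were tested, with 3 higher and 3 lower in KO1 (median log2 fold change -0.13). In KO2, 3 were higher and 6 lower (2 and 7 when scaled by total counts), with a median of -0.35. Over all tested genes, 30.5% were called in KO1 and 54.1% in KO2. Gja1, connexin 43, fell to 39.6 ± 0.950 FPKM in KO1 and rose to 67.8 ± 1.50 FPKM in KO2, against 52.1 ± 1.79 FPKM in Ctrl (log2 fold change -0.43 and 0.46, edgeR adjusted p = 0.00024 and 5.75e-05). Ano6, a lipid scramblase and ion channel, did the opposite, with 77.5 ± 5.74 FPKM in KO1 and 39.1 ± 0.110 FPKM in KO2, against 57.2 ± 4.41 FPKM in Ctrl (log2 fold change 0.41 and -0.47, edgeR adjusted p = 0.00185 and 0.000343). Slco2a1, a prostaglandin transporter described as the core of a maxi-anion channel, rose in both lines (log2 fold change 0.56 and 0.30, edgeR adjusted p = 0.00209 and 0.0327). Gjc1, a connexin gene, rose in KO2 (log2 fold change 0.67, edgeR adjusted p = 1.26e-05). Subunits of the volume-regulated anion channel differed among themselves: Lrrc8e rose in KO1 (0.68, edgeR adjusted p = 0.0263) and fell in KO2 (-3.76, edgeR adjusted p = 1.72e-06), while Lrrc8d and Lrrc8b fell in KO2 (-0.62 and -0.43, edgeR adjusted p = 0.000389 and 0.000533). Calls ended when 1 library was left out for Lrrc8e in KO1 (any Ctrl library, or KO1 replicate 1 or 2) and Slco2a1 in KO2 (Ctrl replicate 1 or 3, or KO2 replicate 3), the last also with total counts or FPKM.

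Of 16 genes of the inflammasome steps that follow ATP sensing, 14 were tested. KO1 had 6 higher and 3 lower (median log2 fold change 0.13), or 7 and 3 when scaled by total counts. KO2 had 3 higher and 6 lower (median -0.41), or 2 and 7 with that scaling. Among all tested genes, the called share was 30.5% in KO1 and 54.1% in KO2, beside medians of -0.0017 and -0.03. Nlrp3, the sensor that potassium loss activates, fell to 5 counts in all in KO1 and 3 in KO2, against 201 in Ctrl (edgeR adjusted p = 5.02e-06 and 1.54e-06). In KO2 this is 1.70% of the Ctrl level (95% counting interval 0.347% to 5.03%). The adaptor gene Pycard had 6 counts in KO1 and 5 in KO2, against 4 in Ctrl, and stayed under the filter. Casp1, the inflammasome protease, averaged 30.5 ± 1.39 FPKM in KO1 and 17.9 ± 1.15 FPKM in KO2, against 15.4 ± 0.878 FPKM in Ctrl, and rose in both lines (log2 fold change 0.95 and 0.29, edgeR adjusted p = 5.55e-06 and 0.00828). Casp4, the caspase that senses cytosolic lipopolysaccharide, rose in KO1 (0.72, edgeR adjusted p = 0.000693) and fell in KO2 (-2.33, edgeR adjusted p = 7.99e-08). The cytokine gene Il18, a caspase-1 substrate, averaged 4.48 ± 0.275 FPKM in KO1 and 0.770 ± 0.0265 FPKM in KO2, against 0.787 ± 0.0723 FPKM in Ctrl (log2 fold change 2.43, edgeR adjusted p = 2.51e-06, and 0.17, edgeR adjusted p = 0.544). Il1a rose in KO1 (1.33, edgeR adjusted p = 0.00583) and fell in KO2 (-2.02, edgeR adjusted p = 0.00108). Il1rn, which encodes the interleukin-1 receptor antagonist, had 1 count in KO1 and none in KO2, against 93 in Ctrl (edgeR adjusted p = 0.000626 and 0.000242), which is at least 15.5-fold lower in KO2. Nlrp3 and Il1rn passed the filter on low counts only through Ctrl, so their calls are a description only. The potassium channel gene Kcnk6, which lets potassium out beside P2X7, fell in both lines (-0.80 and -2.52, edgeR adjusted p = 0.015 and 7.65e-06). Nek7, a partner of NLRP3, rose in KO1 (0.24, edgeR adjusted p = 0.0169), and Brcc3, which deubiquitinates NLRP3, and the gasdermin gene Gsdme rose in KO2 (0.24 and 0.48, edgeR adjusted p = 0.0343 and 0.00447). Calls ended when 1 library was left out for Kcnk6 in KO1 (Ctrl replicate 1 or KO1 replicate 3), Nek7 in KO1 (Ctrl replicate 3) and Brcc3 in KO2 (Ctrl replicate 2 or 3, or KO2 replicate 1 or 2), the last also with total counts or FPKM.

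**Figure D4:**
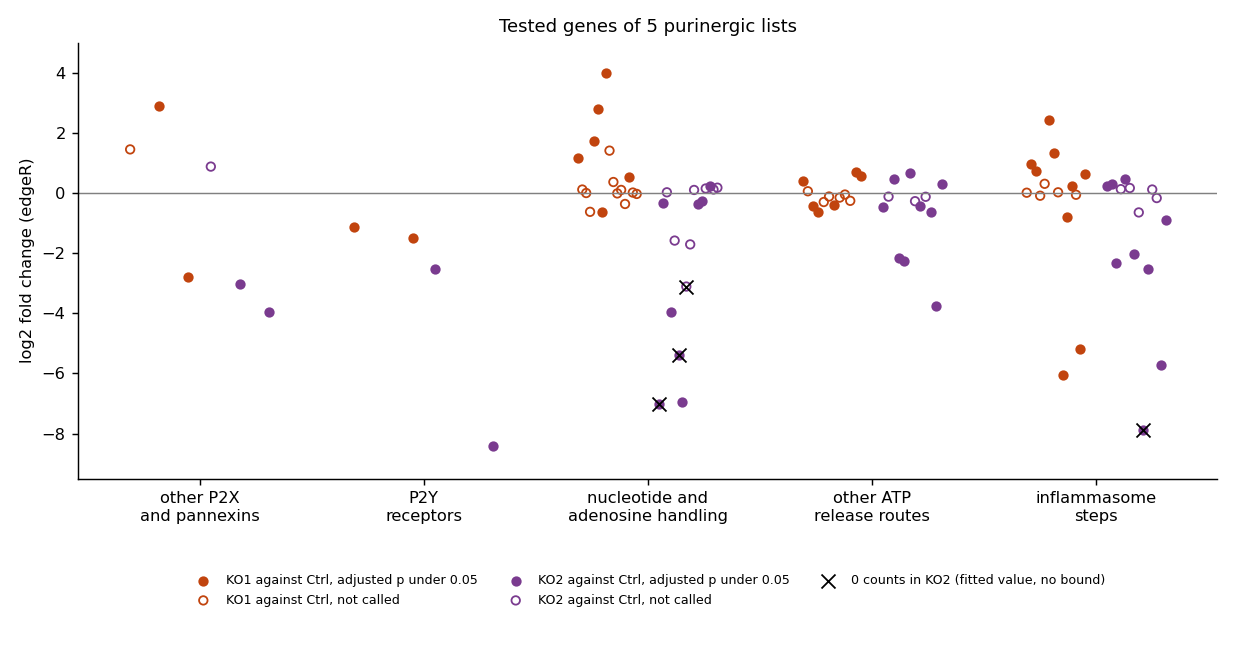
Log2 fold change from edgeR (vertical axis) of the 47 tested genes of the 5 lists, for KO1 and KO2 against Ctrl; filled points have an adjusted p under 0.05, open points do not, and crosses mark genes with no count in KO2, whose fitted value is no bound. In KO1, 15 of the genes were called higher and 10 lower, and in KO2, 7 higher and 23 lower. Over all tested genes, 30.5% were called in KO1 and 54.1% in KO2.

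Of the 22 other tested genes within 500 kb of P2rx7 or P2rx4, 4 were higher and 2 lower in KO1 (5 and 0 when scaled by total counts, 5 and 1 by upper quartile, 4 and 1 by DESeq2 size factors), and 7 were higher and 4 lower in KO2 (6 and 7 when scaled by total counts). Their median log2 fold change was -0.04 in KO1 and -0.01 in KO2. The share called over all tested genes was 30.5% in KO1 and 54.1% in KO2. Rhof, a small GTPase gene, rose in both lines (log2 fold change 1.46 and 1.30, edgeR adjusted p = 0.00105 and 0.00117), as did Tctn1, a gene of the cilium base (0.49 and 0.72, edgeR adjusted p = 0.0077 and 0.000359). A930024E05Rik rose in KO2 (1.06, edgeR adjusted p = 0.00327). Orai1, the pore of store-operated calcium entry, had -0.67 in KO1 (edgeR adjusted p = 0.0496), a call lost without any 1 of 7 libraries, all but Ctrl replicate 1 and KO1 replicate 1, and with total counts, no filter, FPKM or only the 2 groups in the fit, and -0.53 in KO2 (edgeR adjusted p = 0.0736). The nearest tested gene on the other side of P2rx7, Ift81, had 0.39 in KO1 (edgeR adjusted p = 0.0176) and -0.15 in KO2 (edgeR adjusted p = 0.272); it was named after its values were seen.

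**Figure D5:**
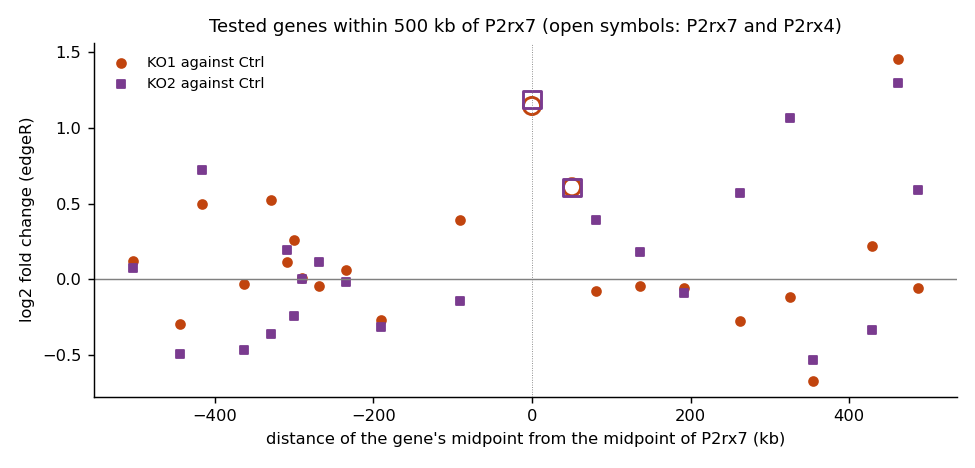
Log2 fold change from edgeR (vertical axis) of tested genes within 500 kb of P2rx7 by distance of their midpoints from that of P2rx7 in kb (horizontal axis), for KO1 (circles) and KO2 (squares) against Ctrl; open symbols are P2rx7 and P2rx4. The median of the 21 other genes shown is -0.03 in KO1 and 0.0012 in KO2. Rhof, at 462 kb, has 1.46 and 1.30.

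Of 28 tested genes within 500 kb of P2rx6, 8 were higher and 3 lower in KO1 (median log2 fold change 0.04), and 19 were higher and 3 lower in KO2 (median 0.46), or 14 and 5 in KO2 when scaled by total counts. Over all tested genes, 30.5% were called in KO1 and 54.1% in KO2. P2rx6 lay above the median of its neighbours in KO2, at 1.25 ± 0.272. The part of its surroundings in the P2rx6 difference was not tested. The genes furthest from 0 had few counts. They were Rimbp3 (-1.92 in KO1, edgeR adjusted p = 0.0138, and -4.07 in KO2, edgeR adjusted p = 0.000385), Aifm3 (3.14, edgeR adjusted p = 0.00106, and 1.26, edgeR adjusted p = 0.133), Ccdc116 (-0.55, edgeR adjusted p = 0.20, and -2.48, edgeR adjusted p = 0.000198) and Car15 (2.26, edgeR adjusted p = 0.00547, and 0.99, edgeR adjusted p = 0.174). The Rimbp3 call in KO1 ended without Ctrl replicate 2. Near Panx1, 1 of 10 tested genes was higher and 2 lower in KO1, and 2 were higher and 1 lower in KO2 (2 and 2 in KO1 and 1 and 2 in KO2 when scaled by total counts), with medians of -0.06 and 0.06. Piwil4, a gene of the piRNA pathway, fell in both lines (-1.27 and -0.36, edgeR adjusted p = 3.65e-05 and 0.0317), and its KO2 call ended without Ctrl replicate 2 or KO2 replicate 1 or 2, and with no filter. Smco4 fell in KO1 (-0.58, edgeR adjusted p = 0.00357) and Amotl1, an angiomotin family gene, rose in KO2 (0.34, edgeR adjusted p = 0.000978). Taf1d was not called in either line (0.04 and 0.28, edgeR adjusted p = 0.897 and 0.20).

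Profiles over the 9 libraries were compared by the root mean square difference of log2 CPM, each gene centred on its own mean, against 10660 genes at 5 CPM or more. The genes most like P2rx7 were St3gal5, the synthase of ganglioside GM3 (0.105), the myosin gene Myo5c (0.109) and the kinase gene Map3k9 (0.119). Within 0.25 of P2rx7 lay 68 genes, or 0.638%. P2rx4 had 14.1% of genes within 0.25, the most of the 4, led by Pdcd4, an inhibitor of translation (0.0592), the transcription factor gene Tef (0.0704), Tspyl2 (0.0753) and Ccdc57 (0.0778). For P2rx6 the nearest were the collagen gene Col7a1 (0.175), Stard6 (0.202), St3gal5 (0.221) and the transcription factor gene Dbp (0.225). For Panx1 they were Glipr2 (0.162), Lmo7 (0.169), Podnl1 (0.198) and the cytokine gene Lif (0.213). P2rx7 and P2rx6 differed by 0.223, P2rx7 and P2rx4 by 0.272, and Panx1 was 1.20 to 1.45 away from the receptors. These distances are descriptions over libraries that fall into 3 groups.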

How the data were processed

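Gene expression was measured in 9 libraries of total RNA, paired-end reads on a BGISEQ-500 per the labels. HISAT, RSEM and the builds mm10 and GRCm38 are named per the submitters' processing notes, with no versions. The deposited tables hold, per library and gene, an expected count, not normalized by the authors, FPKM scaled by the authors for length and depth, and a transcript length. Only genes at 0.01 FPKM or more were listed, and others were taken as 0. Expected counts were rounded to whole numbers, of which 74.7% to 75.8% already were. Groups came from the sample titles; the record's design text numbers the last library of each knockout line differently. The tests used R 4.3.3 and the quasi-likelihood F test of edgeR 4.0.16 (robust, after filterByExpr and TMM, all libraries in 1 fit), with Benjamini-Hochberg adjustment over 13682 genes and a call at an adjusted p under 0.05. CPM are after TMM scaling, with factors of 0.95 to 1.036. Each SE was taken back from the log2 fold change and its F statistic, and is approximate. Intervals and floors cover counting error only.

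The 4 genes, the 5 pathway lists and the 3 marker lists were chosen with earlier results of these data known. From each list the text names up to 6 genes called in both lines and up to 4 more called in either, by size of change; for each locus the 4 neighbours, and for each gene the 4 nearest profiles; a few genes the rule takes are not reported here. Alternatives were other scalings, filters, each library left out, a replicate block, a fit of the 2 groups alone, DESeq2 1.42.0, and limma 3.58.1 both with voom and on log2 of FPKM plus 1 or plus 0.1. The symbol Gsdme was read from the gene number. Replicates differed beyond counting noise. The edgeR fit was tested on simulated data for KO1 against Ctrl.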

Additional observations from a re-analysis of the deposited data

Results flagged for a closer look

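Each of the following genes of the 5 lists differed between the knockout lines by the edgeR test of KO2 against KO1 itself, and the values are log2 fold changes of KO2 over KO1, edgeR adjusted p from 9.5e-09 to 0.0399. Among receptors they were P2rx5 (-5.93), P2ry6 (-6.91), P2ry2 (-1.41) and Adora2b (-3.33). Among enzymes that act on nucleotides they were Acpp (-8.20), Enpp2 (-6.34), Enpp1 (-8.16), Nt5e (-0.31), Enpp3 (-7.11), Alpl (-3.32) and Entpd5 (-0.34). Acpp, Enpp1 and Enpp3 had no count in KO2, so their fitted values are no bound, and they were at least 14.2-fold, 10.6-fold and 8.51-fold lower in KO2 than in KO1. Among ATP release routes they were Lrrc8e (-4.45), Ano6 (-0.88), Gja1 (0.88), Gjc1 (0.78), Lrrc8d (-0.36) and Lrrc8b (-0.27). Among inflammasome steps they were Kcnk6 (-1.71), Casp4 (-3.04), Il1a (-3.35), Casp1 (-0.66), Il18 (-2.27) and Brcc3 (0.24). Of these genes, P2rx5, Enpp1, Enpp3 and Alpl passed the filter on low counts only through KO1, so their calls are a description only. The call of Lrrc8d ended without KO1 replicate 3 or KO2 replicate 2. That of Brcc3 ended without Ctrl replicate 3, KO1 replicate 3 or any KO2 library, and with upper quartile or total count scaling and on both log2 FPKM scales (adjusted p up to 0.47). Of all tested genes 55% were called in this comparison.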

How the results depend on the processing

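P2rx4, P2rx7 and P2rx6 were higher and Panx1 lower than Ctrl in both lines under each of 20 alternatives, and all 4 were called in both lines each time, except P2rx6 in KO1 without KO1 replicate 3 (3 of 4 called). Since the 4 genes were chosen on values of these same libraries, nothing is read from these calls. Over libraries left out, the log2 fold change of P2rx7 ran from 1.12 to 1.18 in KO1 and from 1.17 to 1.22 in KO2, and that of Panx1 from -1.15 to -1.01 in KO1 and from -2.44 to -2.31 in KO2. Values that moved by more than the replicate SD came with FPKM or total count scaling; the pseudocount shrinks low genes by construction. On log2(FPKM + 1) the values were, for P2rx7, 0.91 in KO1, 0.88 in KO2 and -0.0372 for KO2 against KO1; for P2rx6, 0.30 and 0.33; for P2rx4 in KO2, 0.49; and for Panx1, -0.75, -1.52 and -0.76. On log2(FPKM + 0.1) they were 1.05, 1.01 and -0.0410 for P2rx7 and 0.91 for P2rx6 in KO2. Scaling by total counts moved the median of all genes by -0.11 for KO2 against KO1, where 2514 genes were then higher and 5023 lower, against 3495 and 4034 with TMM. P2rx7 then had 1.11 in KO2 and -0.0620 for KO2 against KO1.

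Counts of called list genes changed most with the filter at 1 CPM in 3 libraries, which tests fewer genes. Nucleotide genes then numbered 2 in KO1, 5 in KO2 and 6 for KO2 against KO1, and other P2X and pannexin genes 0 in each, where 2, 2 and 1 were called. With no filter the P2X and pannexin list had 4 in KO2 and 3 for KO2 against KO1. In KO2, it had 1 on log2(FPKM + 1), and with only the 2 groups compared it had 1 and nucleotide genes 5; the cause was not tested. Of the results on single named genes 2318 kept their side of the threshold, 111 lost a call and 43 gained one. No called result changed direction, while some that were not called did. Same-numbered libraries had correlations of -0.34 to 0.05, so the numbers pair nothing; with a replicate block 3365 genes were called in KO1, 6726 in KO2 and 6829 for KO2 against KO1, against 4177, 7400 and 7529 without it, and the number of the 4 genes called did not change. Among named list and neighbouring genes against Ctrl, the block ended the calls of Lrrc8e (adjusted p = 0.0675) and Orai1 (0.103) in KO1 and of Slco2a1 (0.0541) and Piwil4 (0.0542) in KO2. Depth limits P2rx6, P2rx5, Panx2 and the other low genes most.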
